A study of Mus musculus with 2 samples.

Results

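Tac1, Reg4, Afp and Ucn3 are 4 genes whose products are secreted, and each has been linked to enterochromaffin cells, the serotonin-making cells of the gut lining. They were chosen by name out of 16943 nuclear genes listed for 1 or both of 2 plates of single cells, because earlier results of the same data placed them near Tph1 in single wells. How many wells hold them, how few wells carry their reads and how far they overlap with Tph1 and Muc2 are therefore descriptions, and no test is made of them. The cells came from mouse small intestinal organoids (jejunum and ileum) with the genotype Neurog3-RFP hom, and RFP-positive cells were sorted 1 per well. One 384-well plate was sorted after 48 h in DMSO, the solvent, and the other after 48 h in ISX-9, isoxazole 9, a small molecule known for driving neuronal differentiation. Both plates carry the same homozygous reporter, which marks cells that express Neurog3, the switch gene of the endocrine lineage, or did so recently. The number of mice or organoid lines behind a plate is not given in the labels, and with 1 plate per treatment no difference below has a replicate check.

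Enterochromaffin cells make serotonin with the enzyme Tph1, store it in granules filled with chromogranins and release it onto nerve endings and neighbouring cells. Tac1 encodes the precursor of substance P and neurokinin A, peptides that act on gut nerves and muscle, and it is a classic companion of serotonin in the gut. Reg4 encodes a secreted C-type lectin found in enterochromaffin cells and also in mucus-secreting and Paneth-type cells. Afp encodes alpha-fetoprotein, the serum protein of the fetal liver and yolk sac, and Ucn3 encodes urocortin 3, a peptide ligand of the corticotropin-releasing factor receptor 2. Muc2, the gel-forming mucin of goblet cells, served as the marker of the secretory cells from which Tph1 wells had to be told apart.

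The promoters of Reg4 and Afp are shown because these are the 2 genes with the lower level in the ISX-9 plate, and because they share a run of letters. The sequences are from RefSeq (build GRCm38.p6), cover the 250 bases before the annotated start and are written 5′ to 3′ on the strand of the gene. Capitals mark the longest run that both windows hold on the same strand, which has 12 bases. Reg4 is at chr3:98221906-98222155 on the plus strand, and Afp is at chr5:90490464-90490713 on the plus strand.
Reg4: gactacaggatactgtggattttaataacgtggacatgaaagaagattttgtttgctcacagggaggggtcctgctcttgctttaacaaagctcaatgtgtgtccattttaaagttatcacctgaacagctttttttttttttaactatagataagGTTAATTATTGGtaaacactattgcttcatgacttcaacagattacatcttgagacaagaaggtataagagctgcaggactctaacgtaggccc
Afp: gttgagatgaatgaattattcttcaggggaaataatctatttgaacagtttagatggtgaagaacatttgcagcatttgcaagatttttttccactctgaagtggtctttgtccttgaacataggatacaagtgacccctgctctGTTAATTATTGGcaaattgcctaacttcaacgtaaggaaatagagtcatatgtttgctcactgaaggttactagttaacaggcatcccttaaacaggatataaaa

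The run lies at bases -94 to -83 of Reg4 and at -105 to -94 of Afp, counted back from the annotated start. Searched on both strands, the run is in 3 of the 32851 mouse promoters of that length. Reg4 and Afp hold it by the way it was chosen, and the only other holder was C030018K13Rik. The E-box CANNTG, the letters bound by Neurog3 and its relatives, was searched in the same way and is in 66.2% of promoters and matched at 2 places in Tac1, 1 in Reg4, 4 in Afp and 2 in Ucn3. The core of the cyclic AMP response element, TGACG, is in 17.8% of promoters and matched at 2 places in Tac1 and in none of the other 3. All 4 genes were found in the promoter table, and these matches describe letters and not binding.

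The kept wells, those with at least 2000 reads outside spike-ins and mitochondrial genes and at least 500 genes, numbered 300 of 384 in the DMSO plate and 290 of 384 in the ISX-9 plate. Their reads ranged from 2295 to 489134 per well (median 26340.0) and from 2007 to 326339 (median 22509.5). Levels are reads per 1000000 nuclear reads (CPM), and 3 reads, used as the lower limit of detection, equal 0.203 CPM in the DMSO plate and 0.254 CPM in the ISX-9 plate. For the 9106 genes averaging 10 CPM or more across the plates, ISX-9 over DMSO had a median log2 ratio of 0.15, and scaling by median of ratios or by ERCC spike-ins gave ratios of 0.23 or 0.13 for Tac1, -1.91 or -2.01 for Reg4, -5.70 or -5.74 for Afp and 0.44 or 0.35 for Ucn3, against the values given below. The reporter's own gene, Neurog3, stood at 679 CPM in DMSO and 2990 CPM in ISX-9. Ptprc, Cd3e and Cd79a, which define immune cells, were each at or below 0.0678 CPM in both plates.

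Summed over kept wells, 2 of the 4 genes were lower in the ISX-9 plate by at least 2-fold and none was higher by that much. Among all 9106 genes, 1.19% were lower and 4.51% were higher by at least 2-fold, on the scale of CPM + 5. Afp stood at 434 CPM in DMSO (6409 reads, exact 95% Poisson interval 424 to 445) and at 3.81 CPM in ISX-9 (45 reads, 2.78 to 5.10), a log2 ratio of -5.64. For Reg4 the DMSO level was 1439 CPM (1420 to 1459) and the ISX-9 level 421 CPM (410 to 433), with -1.76 as log2 ratio. Tac1 stood at 1914 CPM (1890 to 1940) in ISX-9 and at 1468 CPM (1449 to 1488) in DMSO, so that its log2 ratio was 0.38. Ucn3 stood at 30.9 CPM in ISX-9 (365 reads, 27.8 to 34.3) against 19.2 CPM in DMSO (283 reads, 17 to 21.6), a log2 ratio of 0.57, which turned to -0.045 when the mean of the per-well values was taken. Tph1 itself was at 484 against 717 CPM (log2 ratio -0.56) and Muc2 at 501 against 1716 CPM (-1.77), so the ratio of Reg4 lay close to that of Muc2 and the ratio of Tac1 above that of Tph1. The intervals treat each read as independent and hold no spread between wells or plates. Reads copied in amplification are counted more than once, so the intervals are too narrow even for counting error.

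**Figure D1:**
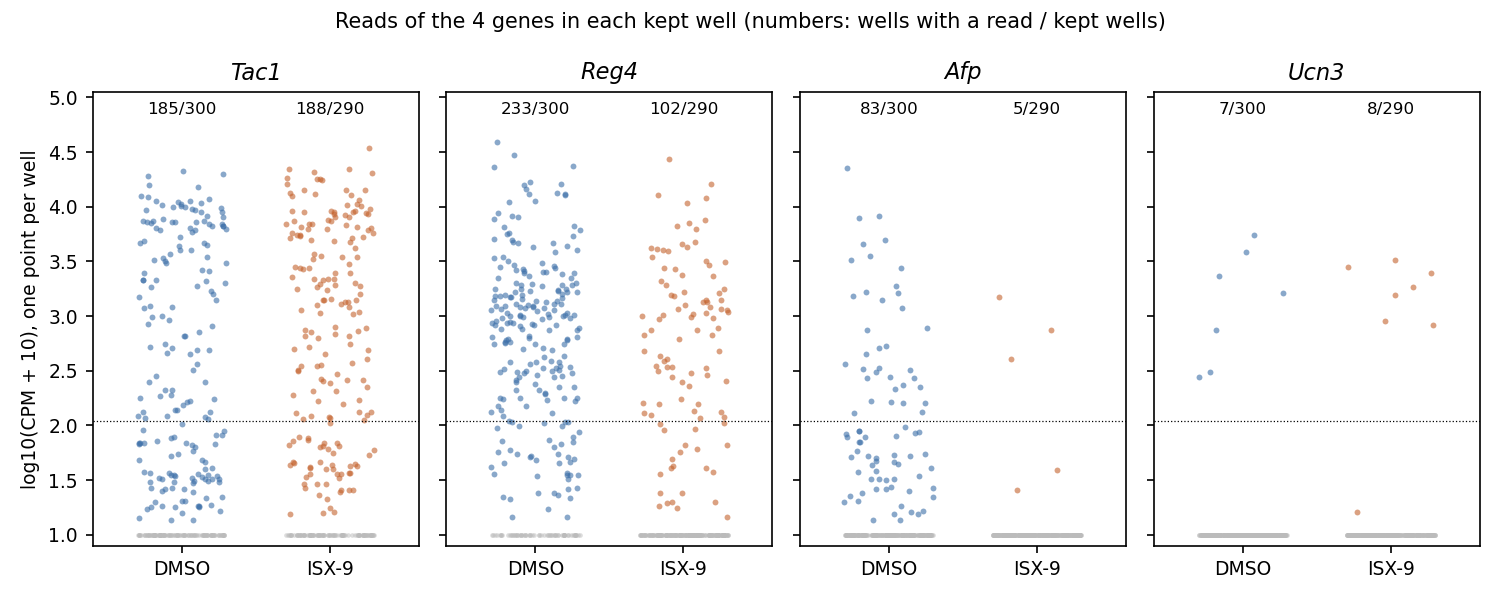
Level of each gene in single wells, as log10(CPM + 10) on the vertical axis, by plate (DMSO blue, ISX-9 orange, wells without a read grey at 1.0). The dotted line is 100 CPM. Reads of Afp were in 83 of 300 wells of the DMSO plate and 5 of 290 of the ISX-9 plate, while Ucn3 was read in 7 and 8 wells.

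A well was called high for a gene when it held at least 5 reads and at least 100 CPM of it, which sets aside wells with a few stray reads. Tac1 had 89 high wells in DMSO (29.7%, exact binomial interval 24.6 to 35.2) and 111 in ISX-9 (38.3%, 32.7 to 44.1). Its per-well level ran from 0 over a median of 23.1 to 21332 CPM in DMSO, and from 0 over 60.6 to 34522 CPM in ISX-9. Within high wells the median of Tac1 was 5890 CPM in DMSO and 4958 CPM in ISX-9, while the summed level was 4818 and 5601 CPM. The ISX-9 plate thus held more Tac1-high wells, and within them the median and the summed level differ in direction. The plates overlap over nearly their whole range for this gene.

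Reg4 was the most widespread of the 4 genes in DMSO, with 154 high wells (51.3%, 45.5 to 57.1), and had 64 in ISX-9 (22.1%, 17.4 to 27.3). Its median over all kept wells was 336 CPM in DMSO and 0 in ISX-9, with highest wells of 38941 and 27127 CPM. High wells had medians of 1378 and 1399 CPM and summed levels of 2511 and 2032 CPM. The lower plate total of Reg4 in ISX-9 thus went with fewer high wells, at a like median and a lower summed level. These values pool Tph1-high and Muc2-high wells, which are given apart below.

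Afp had 18 high wells in DMSO (6.0%, 3.59 to 9.32) and 3 in ISX-9 (1.03%, 0.214 to 2.99). A further 64 DMSO wells held 1 to 4 Afp reads, against 2 in ISX-9. Ucn3 was the rarest, with 7 high wells in each plate (2.33% and 2.41%), no DMSO well with 1 to 4 reads and 1 such ISX-9 well. Just outside the limit lay a DMSO well with 5 Afp reads and an ISX-9 well with 1 Ucn3 read, and just inside lay wells with 7 Afp reads in DMSO and 8 Ucn3 reads in ISX-9. After thinning each well to 2000 reads, the shares of wells with a read in DMSO and ISX-9 were 33% and 40.7% for Tac1, 52.7% and 21.4% for Reg4, and 7.0% and 0.690% for Afp.

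A few wells carried most of the reads of Afp and Ucn3. The top 3 DMSO wells of Afp held 84.3% of its reads and the top 3 of Ucn3 held 74.6%, while the top 3 of Tac1 held 33.5% and those of Reg4 28.7%. Thus 2 of the 4 genes had at least 50% of their reads in 3 DMSO wells, against 2.55% of the 9582 genes with at least 100 reads, where the median was 17.96%. In ISX-9 the share was 78.6% for Ucn3, 25.1% for Tac1 and 35.1% for Reg4, against a median of 15.6% and with 1.83% of 9737 genes at 50% or more. Afp, with 45 reads, was under the limit of 100 reads there, and 91.1% of its reads lay in 3 wells.

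A single DMSO well, number 117, held 4139 Afp reads, 64.6% of the plate's total. It had 182035 reads in all, and Afp stood at 22737 CPM in it. The same well held 3078 reads of Reg4, the most of any well, 1324 of Tac1, 1271 of Tph1 and 20899 of the granule protein gene Chgb. Without the 3 highest wells of the gene in each plate, Afp was at 71.4 CPM in DMSO and 0.341 CPM in ISX-9, a log2 ratio of -3.84. The lower level of Afp in ISX-9 was thus present without them, but its size was not the same. Counted per well rather than per read, the top 3 DMSO wells held 51.4% of the summed Afp CPM.

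Ucn3 reads came from well 146 of the DMSO plate above all, with 133 of 283. Well 193 held 41 and well 178 held 37. In ISX-9, well 279 held 140 of 365, well 275 held 97 and well 315 held 50. Tac1 was led in DMSO by well 291, which had 4571 Tac1 reads among 419189, and in ISX-9 by well 328, with 2623 among 75981. Without the 3 highest wells, Tac1 was at 1023 against 1481 CPM (log2 ratio 0.53), Reg4 at 1076 against 280 CPM (-1.92) and Ucn3 at 4.95 against 6.68 CPM (0.23).

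**Figure D2:**
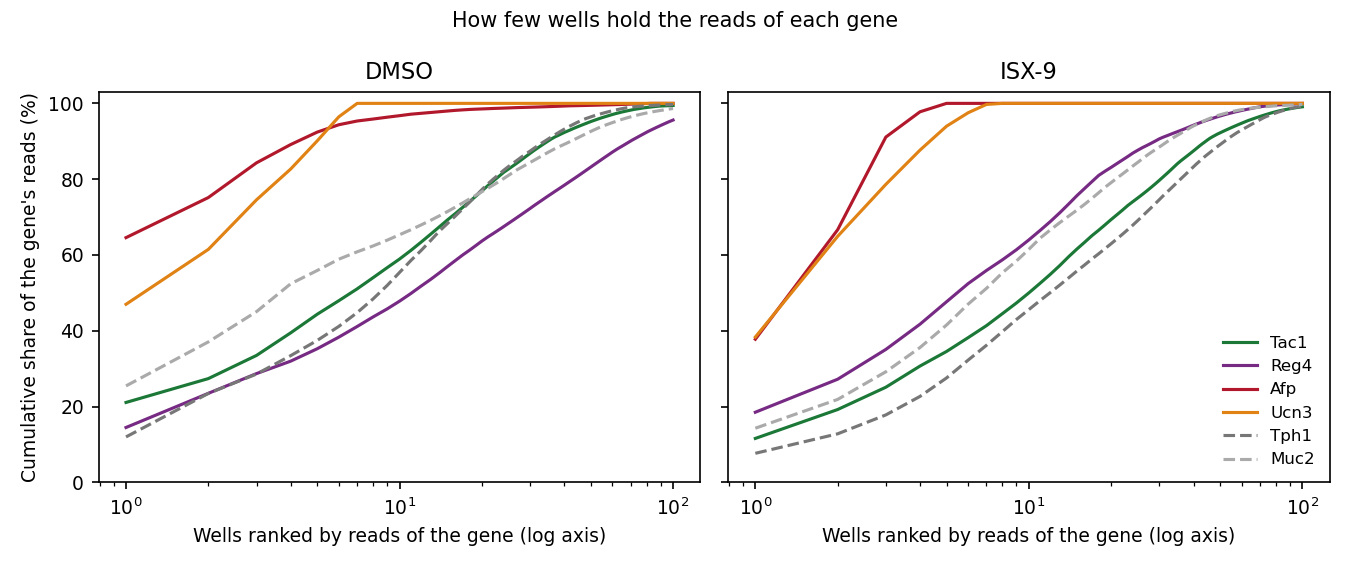
Cumulative share of the reads of each gene (vertical axis, percent) over wells ranked by reads of that gene (horizontal axis, log scale), with Tph1 and Muc2 dashed. In DMSO the line of Afp starts at 64.6% and that of Reg4 at 14.5%.

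Most reads of Tac1, Afp and Ucn3 lay in wells high for Tph1. The 70 Tph1-high DMSO wells held 27.2% of all nuclear reads but 92.8% of the Tac1 reads, 98.4% of the Afp reads, 88.3% of the Ucn3 reads and 62.8% of the Reg4 reads. All 4 genes thus had at least 50% of their reads there, against 3.89% of 9582 genes (median 28.4%). The 87 Tph1-high ISX-9 wells held 29.9% of nuclear reads, 87.5% of the Tac1 reads, 99.7% of the Ucn3 reads, 97.8% of the 45 Afp reads and 34.1% of the Reg4 reads, with 4.93% of 9737 genes at 50% or more. Reg4 is the gene for which the plates differ: in ISX-9 its reads in Tph1-high wells were close to the share of all reads that those wells held.

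Wells high for Muc2 gave the opposite order. Of Tac1, 5.04% of the DMSO reads and 0.677% of the ISX-9 reads were in them, and of Afp 0.858% of the DMSO reads. Reg4 had 33.3% of its DMSO reads in the 118 Muc2-high wells and 59.02% of its ISX-9 reads in the 62 Muc2-high wells, which held 41.1% and 23.8% of all nuclear reads. None of the 4 genes reached 50% in Muc2-high wells in DMSO, where 8.81% of genes did, and Reg4 alone did in ISX-9, where 1.34% did.

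By wells, most Tac1-high wells were Tph1-high and most Tph1-high wells were Tac1-high. Of 89 Tac1-high DMSO wells 63 were also Tph1-high (70.8%, exact interval 60.2 to 79.9), and of 111 in ISX-9 72 were (64.9%, 55.2 to 73.7). Seen from the other side, 63 of 70 Tph1-high wells in DMSO and 72 of 87 in ISX-9 were Tac1-high. Among wells not high for Tac1, 3.32% in DMSO and 8.38% in ISX-9 were Tph1-high. With both limits set at 1 read in place of 5 reads and 100 CPM, 57.3% of the Tac1 wells in DMSO held Tph1. Tac1 and Muc2 were high together in 10 DMSO wells (11.2%) and 3 ISX-9 wells (2.70%).

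**Figure D3:**
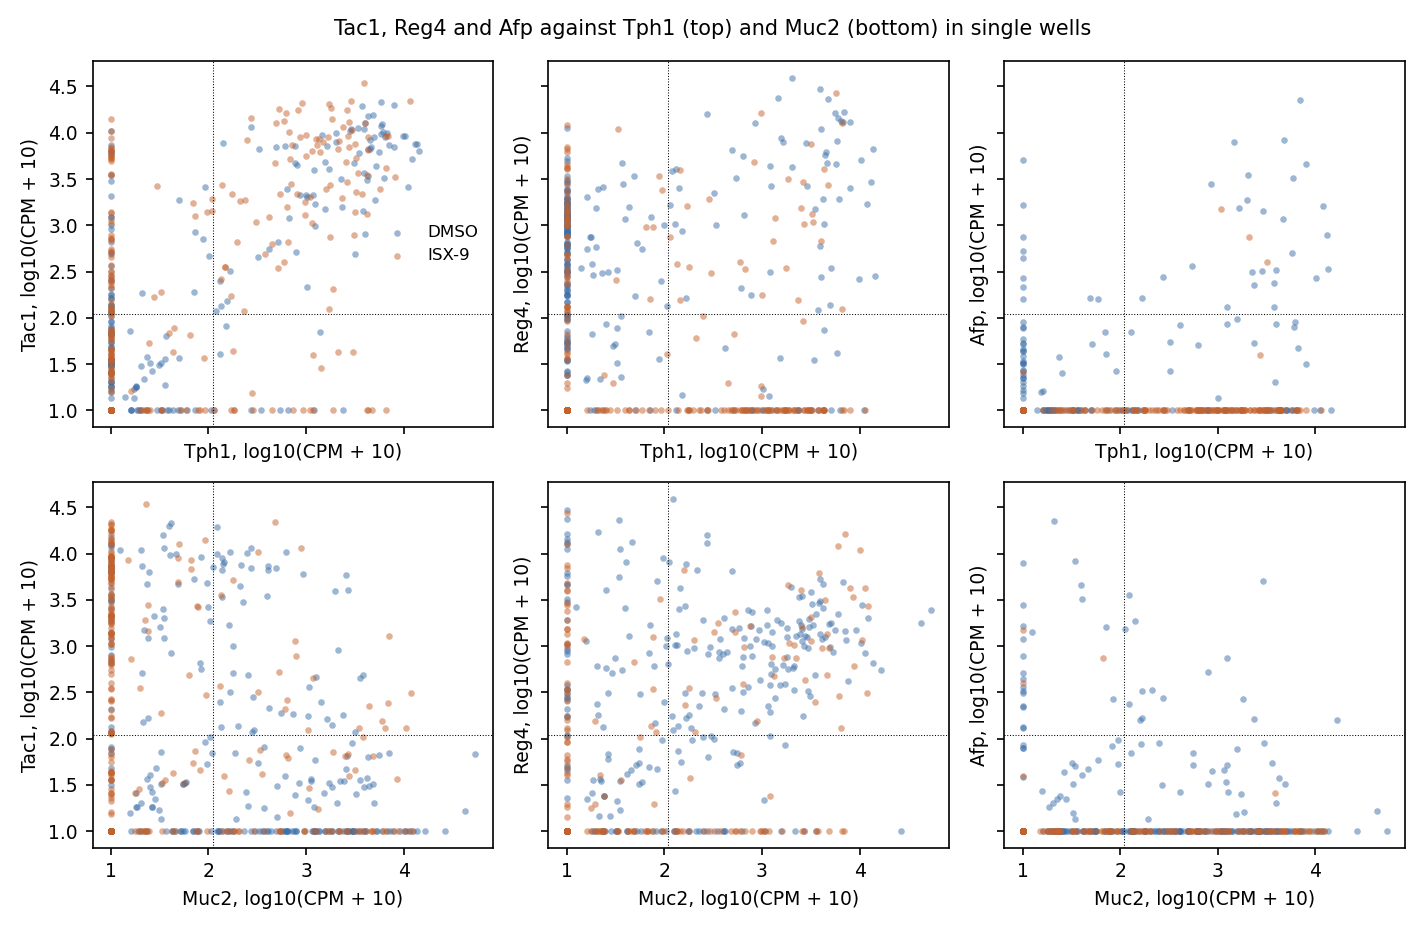
Tac1, Reg4 and Afp (vertical axes) against Tph1 (top row) and Muc2 (bottom row) in single wells, all as log10(CPM + 10), DMSO blue and ISX-9 orange. Dotted lines are 100 CPM and points at 1.0 have no read. Tac1 follows Tph1 and is low where Muc2 is high, while wells high for Reg4 occur with either marker.

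Reg4 wells fell into 3 sets. In DMSO, 90 of the 154 Reg4-high wells were Muc2-high (58.4%, 50.2 to 66.3) and 37 were Tph1-high (24.0%, 17.5 to 31.6), of which 4 were high for both. In ISX-9, 31 of 64 were Muc2-high (48.4%, 35.8 to 61.3), 21 were Tph1-high (32.8%, 21.6 to 45.7) and 12 were high for neither. By number of wells Reg4 was more often found with Muc2 than with Tph1 in both plates. Muc2-high and Tph1-high wells numbered 118 and 70 in DMSO, and 62 and 87 in ISX-9. Of wells not high for Reg4, 19.2% in DMSO and 13.7% in ISX-9 were Muc2-high, and 22.6% and 29.2% were Tph1-high. Over all kept wells, Tph1-high wells were thus about as frequent with Reg4 as without it. Among wells not high for Muc2, Reg4 was high more often with Tph1 than without. There, 51.6% of Tph1-high and 26.3% of other wells were Reg4-high in DMSO, and 25% and 8.33% in ISX-9. The label of an enterochromaffin gene thus covers Reg4 in part.

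The Reg4-high wells with Muc2 and without Tph1 held goblet and Paneth markers. In the 86 such DMSO wells, Itln1, which encodes an intelectin of these cells, stood at 11784 CPM, the goblet peptide Tff3 at 5612 CPM and the Paneth lysozyme Lyz1 at 7038 CPM. Tac1 was at 18.3 CPM and Tph1 at 7.02 CPM in them. In the 33 DMSO wells high for Reg4 and Tph1 but not Muc2, Itln1 was at 91.3 CPM and Muc2 at 18.6 CPM, while Chgb was at 53953 CPM and Tac1 at 7650 CPM. Muc2-high DMSO wells without Reg4 also held Itln1 (4039 CPM) and Tff3 (5308 CPM), with Reg4 at 77.2 CPM.

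The plate difference of Reg4 was not the same in the 2 kinds of well. In wells high for Tph1 and not Muc2, Reg4 stood at 3253 CPM in DMSO (64 wells, 3196 to 3310) and at 492 CPM in ISX-9 (84 wells, 469 to 516). The share of these wells that were Reg4-high was 51.6% (38.7 to 64.2) and 25% (16.2 to 35.6), and their median Reg4 was 463 and 0 CPM. In wells high for Muc2 and not Tph1, the summed level was 1059 CPM in DMSO (112 wells, 1033 to 1086) and 1075 CPM in ISX-9 (59 wells, 1037 to 1115). Fewer of the Muc2 wells were Reg4-high in ISX-9, 52.5% (39.1 to 65.7) against 76.8% (67.9 to 84.2), and their median was 419 against 994 CPM. The even summed level in Muc2 wells rests on few wells: without the 3 highest of each plate it was 917 CPM in DMSO and 530 CPM in ISX-9, whereas in Tph1 wells it was 2029 and 224 CPM. Whether the difference between the 2 kinds of well is beyond what another pair of plates would give was not tested.

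Goblet and Paneth markers moved with Reg4 between the plates. Of 8 goblet markers 6 were lower by at least 2-fold in ISX-9 and none higher, and of the 5 Paneth markers averaging 10 CPM or more all 5 were lower. Their part in the lower plate total of Reg4 was not tested. Of the other Reg lectins, Reg3g was at 7.59 CPM in DMSO and 353 CPM in ISX-9, and Reg3b at 1.83 and 76 CPM, the opposite direction to Reg4. Reads of Reg3 genes may be shared among near-identical copies. In the ISX-9 wells high for Reg4 and Muc2 but not Tph1, Reg3g was at 463 CPM.

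**Figure D4:**
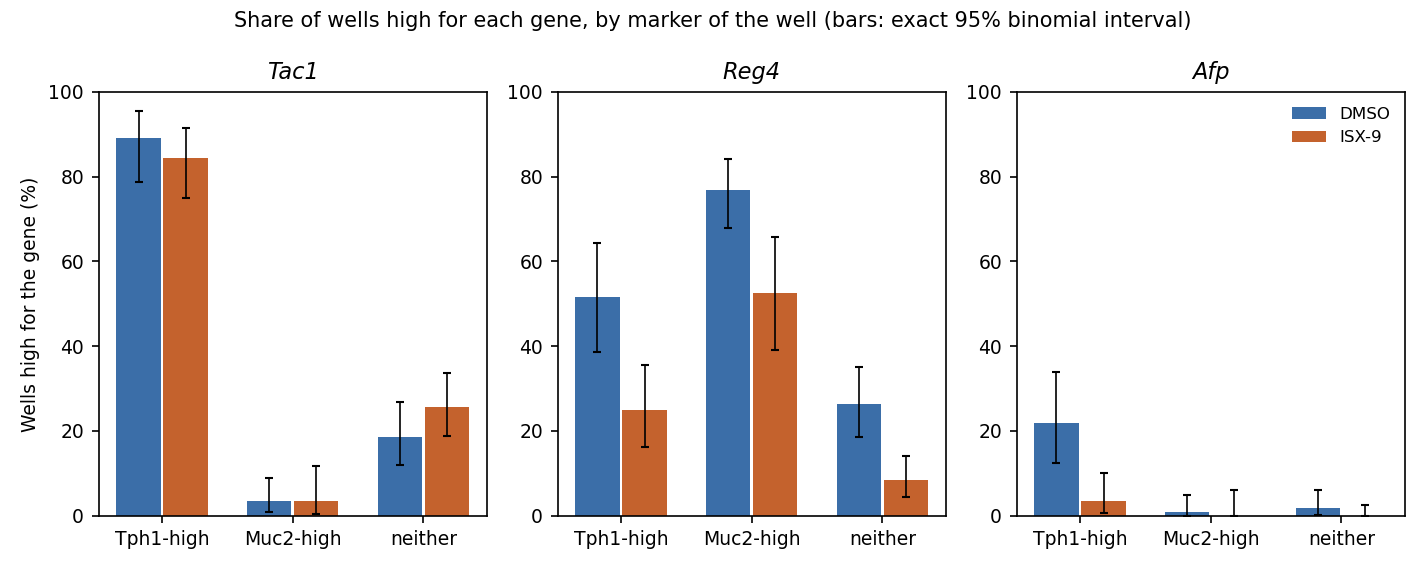
Share of wells that were high for Tac1, Reg4 or Afp (vertical axis, percent, from 0) among wells high for Tph1 and not Muc2, high for Muc2 and not Tph1, and high for neither, in DMSO (blue) and ISX-9 (orange). Bars carry exact 95% binomial intervals. Reg4 shares were 51.6% and 25% in Tph1-high wells and 76.8% and 52.5% in Muc2-high wells.

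Tac1 kept its place within the Tph1-high wells of both plates. In wells high for Tph1 and not Muc2 its level was 4970 CPM (4900 to 5041) in the DMSO plate and 5713 CPM (5634 to 5794) in the ISX-9 plate, and 89.1% (78.8 to 95.5) and 84.5% (75.0 to 91.5) of them were Tac1-high. Their median Tac1 was 5033 CPM in DMSO and 3394 CPM in ISX-9, so the median and the summed level differ in direction. In wells high for neither marker, the DMSO plate had Tac1 at 297 CPM (282 to 313) and the ISX-9 plate at 498 CPM (480 to 517). Tph1-high wells carried 29.9% of the nuclear reads of the ISX-9 plate (87 wells), against 27.2% for the DMSO plate (70 wells). What each of these differences adds to the plate total of Tac1 was not tested.

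Some Tac1-high wells fell short of the limit for Tph1. There were 26 Tac1-high wells that were not Tph1-high in DMSO and 39 in ISX-9. Chgb was read in 293 of 300 kept DMSO wells and 284 of 290 kept ISX-9 wells. It was read in each of these Tac1 wells (24081 and 15227 CPM). They held Ddc, the enzyme after Tph1 in serotonin synthesis, at 342 and 343 CPM, against 777 and 663 CPM in wells high for both genes. Fev, a transcription factor of endocrine precursors and serotonin cells, was at 1085 and 885 CPM, and Lmx1a, a factor of enterochromaffin cells, at 7.82 and 22.8 CPM against 247 and 131 CPM in wells high for both. The wells high for Tac1 and not Tph1 were shallow, with medians of 6340 and 10715 reads against 24870 and 22730 in wells high for both. Some of them held Tph1 reads under the limit, such as DMSO wells 55 (4 reads, 849 CPM) and 132 (2 reads, 481 CPM). Of all Tac1-high wells, 86.5% in DMSO and 78.4% in ISX-9 had a Tph1 read, while 70.8% and 64.9% were Tph1-high. What part depth had in these 26 and 39 wells falling short of the Tph1 limit was not tested. Peptide hormones of other endocrine cells were present in some: Cck was high in 10 of 26 DMSO and 13 of 39 ISX-9 wells, and Gcg in 2 and 1. Cck was high in larger shares of the wells high for both Tac1 and Tph1, 30 of 63 in DMSO and 46 of 72 in ISX-9.

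Neurog3 split the Tac1 wells differently in the 2 plates. Of Tac1-high wells, 29 of 89 in DMSO (32.6%, 23.02 to 43.3) and 47 of 111 in ISX-9 (42.3%, 33.02 to 52.1) were Neurog3-high, while 38 of 211 and 84 of 179 of the other wells were. In DMSO, Tac1 was at 7188 CPM in the 46 Tph1-high wells that were not Neurog3-high and at 2814 CPM in the 24 that were. The corresponding values in ISX-9 were 5559 CPM in 49 wells and 5644 CPM in 38 wells. Tac1 was thus lower beside Neurog3 in the DMSO plate and level in the ISX-9 plate, with no test of that difference.

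Within Tph1 wells of DMSO, Reg4 and Afp stood higher in wells without high Neurog3. Reg4 was at 5437 CPM without and 1194 CPM with high Neurog3, and Afp at 3109 and 23.01 CPM. In the wells without high Neurog3, well 117 gave 4139 of the 6262 Afp reads and 3078 of the 10950 Reg4 reads. By median per well, Reg4 was at 2061 CPM without and 4.53 CPM with high Neurog3, and Afp at 42.4 and 0 CPM. Ucn3 was at 124 CPM without and had no read with high Neurog3. That rests on 5 Ucn3-high wells of 46 (10.9%, 3.62 to 23.6) and 0 of 24 (0 to 14.2), shares whose intervals overlap. In ISX-9, Reg4 was at 605 and 361 CPM. Ucn3 was at 115 and 92.3 CPM there, and 4 of its 7 high wells were also Neurog3-high, against 0 of 7 in DMSO. Of the wells not high for Ucn3, 44.9% in ISX-9 and 22.9% in DMSO were Neurog3-high. Afp was at 25.5 CPM in the ISX-9 wells without Neurog3 and had no read in the 38 with it.

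The 18 Afp-high DMSO wells were nearly all wells of several members. Of these, 17 were Tac1-high, 16 were Reg4-high and 15 were Tph1-high (83.3%, 58.6 to 96.4). The granule genes Chga and Chgb were high in all 18 of them, Neurog3 in 1 and Muc2 in 2. Of the other 282 DMSO wells, 25.5% were Tac1-high, 48.9% Reg4-high and 19.5% Tph1-high. Chga was high in 29.1% of the other wells, Chgb in 64.9%, Neurog3 in 23.4% and Muc2 in 41.1%. In the Afp-high wells Tph1 was at 5241 CPM, Chga at 13327 CPM, Lmx1a at 426 CPM and the vesicular amine transporter Slc18a1 at 1128 CPM. Afp-high wells thus carried the enterochromaffin marker list. Its 7 genes outside the members summed to a median of 95167 CPM, against 1332 CPM over all kept DMSO wells. That median was 53062 CPM in wells high for Tac1 and Tph1, and 81616 CPM in wells high for Reg4 and Tph1 but not Muc2. Chgb alone stood at 74971 CPM in the Afp-high wells.

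The 3 Afp-high wells of ISX-9 held 11, 17 and 13 Afp reads, and each was high for Tac1, Tph1, Chga and Chgb. Of Tph1-high wells, 15 of 70 in DMSO (21.4%) and 3 of 87 in ISX-9 (3.45%) were Afp-high. In wells high for Tph1 and not Muc2, the DMSO plate held Afp at 1636 CPM (1596 to 1677) and the ISX-9 plate at 12.8 CPM (9.28 to 17.2). Well 117 gave 4139 of the 6297 DMSO reads, and the median of these wells was 1.78 CPM in DMSO and 0 in ISX-9. Without the highest well of each plate the levels were 588 and 7.94 CPM. Albumin, the neighbour of Afp in its gene cluster, was at 5.29 CPM in DMSO and 13.8 CPM in ISX-9 and was read in 2 of the 18 Afp-high wells. Of the known regulators of Afp, Zbtb20, its repressor in adult liver, was at 29.1 and 30.5 CPM, and Foxa2, an activator, at 40.8 and 35.5 CPM.

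Low counts of Afp occurred well outside the Tph1 wells of DMSO. Of 112 DMSO wells high for Muc2 and not Tph1, 23 had an Afp read (20.5%, 13.5 to 29.2), with 44 reads in all and at most 12 in a well. In ISX-9, 1 of 59 such wells had 1 read. Muc2-only wells also held a Tac1 read in 47.3% (DMSO) and 47.5% (ISX-9) of cases, at median depths of 37336 and 18095 reads and at levels of 20.8 and 26.02 CPM. A read of these genes without the 5-read limit therefore does not set cells apart. Of the 18 Afp-high DMSO wells, well 323 is the one that was not high for any other member: it had 2398 reads, 12 of Afp and 7 of Muc2.

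Most Ucn3-high wells were also high for Tac1 and Tph1. In DMSO, 6 of 7 were Tac1-high, 6 were Reg4-high, 5 were Tph1-high and 3 were Afp-high. Of the other 293 wells, 28.3% were Tac1-high, 50.5% Reg4-high, 22.2% Tph1-high and 5.12% Afp-high. In ISX-9, all 7 Ucn3-high wells were Tph1-high, 6 were Tac1-high, 4 were Reg4-high and 2 were Afp-high. Of the other 283 wells, 28.3% were Tph1-high, 37.1% Tac1-high, 21.2% Reg4-high and 0.353% Afp-high. Chga was high in all 7 Ucn3-high wells of each plate (31.7% and 32.2% of the others), at 14529 and 19226 CPM. The peptide hormone gene Cck was high in 5 of the 7 DMSO wells (71.4%, against 21.8% of the others) and in 4 of the 7 ISX-9 wells (57.1%, against 34.6%). Pyy was read in 2 and Ghrl in 3 of the DMSO wells, at 7840 and 3107 CPM over the 7, and each was high in 1 of them. The DMSO well without Tac1 and Reg4 was number 299, with 10 Ucn3 reads, 1398 of Cck and none of Afp or Tph1. Prohormone convertase 1 (Pcsk1), which cuts peptide precursors, was at 623 and 306 CPM in these wells, and carboxypeptidase E (Cpe), which trims them, at 650 and 1122 CPM.

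Counting members per well, 3 DMSO wells and 1 ISX-9 well were high for all 4 genes, and each was Tph1-high. Tac1, Reg4 and Afp without Ucn3 were high together in 13 DMSO wells, 12 of them Tph1-high, and in no ISX-9 well. Reg4 alone was high in 110 DMSO wells, of which 83 were Muc2-high and 2 Tph1-high, and in 39 ISX-9 wells, of which 29 and 0 were. Tac1 alone was high in 44 DMSO wells, 28 of them Tph1-high, and in 83 ISX-9 wells, 48 of them Tph1-high. None of the 4 was high in 99 DMSO and 139 ISX-9 wells, of which 31 and 74 were Neurog3-high. Of the Tac1-high wells, 44 of 89 in DMSO (49.4%, 38.7 to 60.2) and 24 of 111 in ISX-9 (21.6%, 14.4 to 30.4) were Reg4-high. Of the wells not high for Tac1, 110 of 211 (52.1%) and 40 of 179 (22.3%) were. Over all kept wells, Reg4 was thus about as frequent with Tac1 as without it in each plate. These shares pool Muc2-high wells, which made up 10 of 89 Tac1-high and 108 of 211 other wells in DMSO. In ISX-9 they made up 3 of 111 and 59 of 179. Among wells not high for Muc2, Reg4 was high more often with Tac1 than without in both plates.

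Where Reg4 joined Tph1 in DMSO, Tac1, Tph1 and Chgb stood higher. The 33 wells high for Tph1 and Reg4 but not Muc2 held Tac1 at 7650 CPM and Tph1 at 3720 CPM. The 33 Tph1-high wells without Reg4 held them at 2390 and 1284 CPM. Chgb was at 53953 and 14527 CPM. In both plates the set without Reg4 also takes in Muc2-high wells, so the sets are not fully alike. Well 291, in the DMSO set with Reg4, held 4571 Tac1 reads among 419189. In ISX-9 Tac1 was at 5455 CPM in 21 wells with Reg4 and 5642 CPM in 66 wells without, and Chgb at 31992 and 31487 CPM. The sets also differ in depth, with medians of 27182 and 13931 reads in DMSO and 17226 and 27741.5 in ISX-9, and the part of depth was not tested.

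Other genes of the same pathways were read as follows. Of the 11 serotonin and enterochromaffin genes averaging 10 CPM or more, none differed by 2-fold in either direction, with a median log2 ratio of 0.14 against 0.15 over all genes. Chga, which encodes chromogranin A, was at 1639 against 863 CPM (-0.92), and Slc18a1 was at 278 against 548 CPM (0.96). Of 7 prohormone-processing genes at that level none differed by 2-fold (median 0.09). The tachykinin receptor genes Tacr1, Tacr2 and Tacr3 were each at or below 0.542 CPM, and the urocortin receptor genes Crhr1 and Crhr2 at or below 0.0847 CPM, so the receptors of these peptides were near or below the floor in the sorted cells. Of 8 progenitor genes, Neurog3 among them, 6 were higher by at least 2-fold and none lower. Reg4 and Afp were the 2 of the 11 enterochromaffin markers that were lower by at least 2-fold, and none was higher.

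The genes most like Tac1 across wells included the chromogranin genes and Tph1. By Pearson's r of log2(CPM + 10) over the 300 DMSO wells, Scn3a, a sodium channel (0.80), Chgb (0.80), Tph1 (0.77), Chga (0.68) and Rab3c, a vesicle GTPase (0.66), came first of 9430 genes. Over the 290 ISX-9 wells they were Chgb (0.72), Chga (0.68), Scn3a (0.62), Vim (0.59), which is also on the list of immune and mesenchymal markers, and Tph1 (0.57). Chgb, Chga, Scn3a and Tph1 were among the first 5 in both plates. The genes most like Reg4 were Itln1 (0.40), Retnlb (0.38), Guca2b (0.36), Cpne4 (0.36) and Resp18 (0.35) in DMSO, and Itln1 (0.50), Defa24 (0.47), Muc2 (0.45), Spink4 (0.43) and Agr2 (0.38) in ISX-9. Afp followed Pappa2 (0.52), Nptx2 (0.52), Vgf (0.49), Chga (0.49) and Ptprn (0.48) in DMSO. These wells share a library and differ in depth, and the values with r under 0.5 are weak, so they are given as a description with no p. Afp in ISX-9 and Ucn3 were read in under 20 wells and were not ranked.

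Neurog3 had a negative r with Reg4 in both plates. It was -0.32 in DMSO, the last of 9430 genes, and -0.21 in ISX-9, rank 9765 of 9888. With Tac1 it was 0.09 in DMSO and -0.17 in ISX-9. Tac1 and Muc2 had r of -0.33 in DMSO and -0.29 in ISX-9. The r of Tac1 with the log2 total of reads per well was -0.19 in both plates, and that of Reg4 was 0.03 in DMSO and -0.14 in ISX-9.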

How the data were processed

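Single sorted cells of 2 plates, 1 per treatment, were profiled by SORT-seq with the CEL-Seq2 protocol. The authors deposited raw counts of reads per gene and well, 1 table per plate with the same 384 well numbers, which are not collapsed by molecular barcode. Per the submitters' processing notes BWA was used (version not given) with build hg19, whereas the gene rows carry mouse symbols and chromosomes. Which reads were counted for a gene is not stated there. The genes, lists and limits were chosen with earlier results of these data known. The text names the 4 genes, Tph1, Muc2 and Neurog3, the 5 genes most like each, and up to 4 genes per list, and other genes of the lists were picked after their values were seen.

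Reads outside ERCC and chromosome M rows were totalled per well, and a gene missing from 1 table was set to 0 there. Wells with at least 2000 such reads and 500 genes were kept. Doublets were not called. Levels are summed reads per 1000000 nuclear reads (CPM) with exact 95% Poisson intervals, which are too narrow because reads copied in amplification are counted again. Shares have exact Clopper-Pearson intervals, which cover the sampling of wells from 1 plate. Ratios are log2 of (CPM + 5). With 1 library per treatment nothing was tested, and the text prints no p-value. Python 3.11.15, numpy 2.4.6, pandas 2.3.3, scipy 1.17.1 and matplotlib 3.10.9 were used, and the steps were tested on simulated data. Promoters are RefSeq's, matched by symbol, and chromosomes follow the deposited tables. Alternatives are listed after the report. One gene of the lists is not reported here.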

Additional observations from a re-analysis of the deposited data

Results flagged for a closer look

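Wells that were not kept also held reads of these genes, although no comparison uses them. The 84 DMSO wells not kept had 159699 nuclear reads, with 76 reads of Tac1 in 35 wells (476 CPM), 126 of Reg4 in 30 wells (789 CPM) and 12 of Afp in 7 wells (75.1 CPM). The 94 ISX-9 wells not kept had 110974 nuclear reads, with 114 reads of Tac1 in 37 wells (1027 CPM) and 34 of Reg4 in 14 wells (306 CPM). Each of these counts is above the 3 counts taken as the floor, and the plates hold no control wells to set beside them.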

How the results depend on the processing

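No paired analysis was possible because each treatment has 1 plate, and no replicate could be left out. Of the recomputed values that answer a comparison, 48 moved beyond the interval of the reported value and 1 reversed, and the others stayed within it. Intervals that come from reads are too narrow, as stated above. The reversed value was the log2 ratio of Ucn3, -0.045 by the mean of per-well CPM, and it was 0.23 without the 3 highest wells.

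The log2 ratio of Tac1 was 0.28 with Rn45s out of the totals, 0.43 by the mean of per-well CPM, 0.23 with median-of-ratios scaling, 0.13 with ERCC scaling, 0.51 without the highest well, 0.71 without the top 5% of wells by reads and 0.53 without the 3 highest wells. In the same order, that of Reg4 was -1.86, -1.34, -1.91, -2.01, -1.83, -1.56 and -1.92, and it was -1.83 at 5000 reads and 1000 genes per well. That of Afp was -4.19 by the mean of per-well CPM, -4.45 without the highest well, -4.01 without the top 5% of wells, -6.50 with a pseudocount of 1 CPM and -3.84 without the 3 highest wells.

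With wells counted at 1 read, the share of wells in ISX-9 minus that in DMSO was -42.5 percentage points for Reg4 and -25.9 for Afp. At that limit the share also holding Tph1 was 57.3% of Tac1 wells in DMSO, and 44.6% and 46.1% of Reg4 wells in DMSO and ISX-9. The share also holding Muc2 was then 77.3% and 35.6% of Tac1 wells, 84.98% and 61.8% of Reg4 wells, and in DMSO 78.3% of Afp and 85.7% of Ucn3 wells. Thinned to 2000 reads, it was 25.3% and 11.02% of Tac1 wells and 80% of Ucn3 wells in DMSO, and the share of Tac1 wells with Tph1 in ISX-9 was 53.4%. At 5000 reads and 1000 genes 82.9% of DMSO Tac1 wells were Tph1-high, and at 500 CPM 4.76% were Muc2-high.

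The following were chosen after seeing the data. In Tph1-high wells the log2 ratio of Tac1 was 0.29 without the 3 highest wells, 0.25 at 500 CPM and 0.14 with Rn45s out, and that of Reg4 was -3.15 without the 3 highest and -3.03 at 500 CPM. That of Afp there, -6.53, was -5.61 without the 3 highest and -5.52 without the highest well. In Muc2-high wells that of Reg4 was -0.79, 0.19 and -0.12 in that order. The removal of the 3 highest wells was likewise added later for the plate totals. The cause was not tested for any of these shifts. By Spearman's rho, 3 of the 5 genes most like Afp were shared. The depth of single wells limits each share of wells with a read.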
